A study of Homo sapiens with 22 samples.

Results

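The genes of the mitochondrial ribosomal proteins were examined in human HT1080 cells, a fibrosarcoma line, across 6 groups of RNA-seq libraries. A gene was included when its symbol was MRPL or MRPS followed by a number and at most one of the letters A, B or C. This rule, which uses no measured value, found 77 of the 60675 genes in the table, 48 with a large subunit symbol (MRPL) and 29 with a small subunit symbol (MRPS). All 77 were tested in every comparison, and the lowest count of any of them in any library was 9.

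The libraries came from 4 samples of untreated wild-type cells (WT), 4 each of 3 lines with a histidine-to-alanine change in the active site of an endogenous lysine deacetylase, and 3 each of WT cells given an inhibitor. KDAC6H216A carries the change in the first catalytic domain of KDAC6 (gene HDAC6) and KDAC6H611A in the second, and KDAC8H143A carries it in KDAC8 (gene HDAC8). The methods describe KDAC6H216A as pooled from 3 independent lines and do not give the number of clones behind the other 2. The study also describes an unintended insertion of a base in an intron near the site in KDAC8H143A. Tubastatin A, an inhibitor of KDAC6, was given at 1 µM and PCI-34051, an inhibitor of KDAC8, at 5 µM, both for 2 days. Both inhibitor groups were compared with the same untreated WT cells, and no vehicle-treated group was used here. The replicates are described as biological. A changed codon does not show in counts per gene, so these cannot check the labels. Of 5 mesenchymal markers, VIM, FN1, SPARC and LGALS1 were at 165.8 CPM (counts scaled to a common library size) or more in every library and COL1A1 was low, at 0.290 to 21.3 CPM. Of 7 markers of other cell types, 6 stayed at or below 3.97 counts and KRT8 was at 105 to 253 CPM.

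Mitochondria have ribosomes of their own, which translate the few messages of the mitochondrial genome, all for subunits of the respiratory chain and ATP synthase. The 2 rRNAs of these ribosomes are made in the mitochondrion, whereas their proteins are encoded in the nucleus, translated in the cytosol and imported. Some of the proteins have counterparts in bacterial ribosomes, and their unified names begin with u or b. The others are particular to mitochondrial ribosomes and carry an m in that place. Symbols do not always follow the particle: the proteins of MRPS30 (mL65) and MRPS18A (mL66) sit in the large subunit, and the protein of MRPS36 belongs to the 2-oxoglutarate dehydrogenase complex.

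RefSeq promoters (GRCh38.p14), from 250 bases before to 50 after the start of transcription, were found for 68 of the 77 genes. Motifs of 3 factors associated with the nuclear genes of mitochondrial proteins were searched on both strands. The YY1 element AAGATGGCG was in a promoter of 13 of the 68 genes (19.1%), against 2.14% of all 27305 genes with a promoter. The ETS core CCGGAAG was in 29 (42.6%, against 12.2%), and the longer CCGGAAGT, which contains it, in 12 (17.6%, against 4.95%). The NRF1 motif GCATGCGC was in 6 (8.82%, against 3.68%). The 27305 genes were not limited to genes expressed in these cells, as all 68 were, and shares among expressed genes were not counted. Of the 13 genes with the YY1 element, 8 had a large and 5 a small subunit symbol. The promoters of 4 genes are shown. MRPL33 fell furthest and MRPL12 rose furthest with either inhibitor. MRPL22 rose with the inhibitors and was called lower in KDAC8H143A, though not with a correction for GC content and length. MRPL46 shares its window with another member, MRPS11. Capitals mark a match to one of the motifs, on either strand, and each sequence runs 5′ to 3′ on its gene's strand.
MRPL12, chr17:81703117-81703416, plus strand: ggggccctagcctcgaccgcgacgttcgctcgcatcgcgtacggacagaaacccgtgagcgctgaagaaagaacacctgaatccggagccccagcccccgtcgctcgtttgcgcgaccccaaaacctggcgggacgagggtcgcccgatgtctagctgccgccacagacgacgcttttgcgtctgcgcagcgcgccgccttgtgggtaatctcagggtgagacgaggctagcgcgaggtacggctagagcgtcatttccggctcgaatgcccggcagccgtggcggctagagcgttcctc
MRPL22, chr5:154940823-154941122, plus strand: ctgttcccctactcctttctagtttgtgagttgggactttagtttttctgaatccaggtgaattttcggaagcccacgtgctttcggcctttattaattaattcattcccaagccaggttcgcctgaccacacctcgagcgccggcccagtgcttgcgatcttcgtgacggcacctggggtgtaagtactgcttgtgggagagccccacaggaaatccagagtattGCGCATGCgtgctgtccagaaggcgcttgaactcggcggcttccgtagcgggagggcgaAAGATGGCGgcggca
MRPL33, chr2:27771469-27771768, plus strand: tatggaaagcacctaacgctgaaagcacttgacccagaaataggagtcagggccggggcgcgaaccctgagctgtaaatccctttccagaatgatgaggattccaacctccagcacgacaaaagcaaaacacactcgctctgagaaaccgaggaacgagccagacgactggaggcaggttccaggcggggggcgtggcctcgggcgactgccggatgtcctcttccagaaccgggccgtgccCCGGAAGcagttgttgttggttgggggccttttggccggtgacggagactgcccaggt
MRPL46, chr15:88467339-88467638, minus strand: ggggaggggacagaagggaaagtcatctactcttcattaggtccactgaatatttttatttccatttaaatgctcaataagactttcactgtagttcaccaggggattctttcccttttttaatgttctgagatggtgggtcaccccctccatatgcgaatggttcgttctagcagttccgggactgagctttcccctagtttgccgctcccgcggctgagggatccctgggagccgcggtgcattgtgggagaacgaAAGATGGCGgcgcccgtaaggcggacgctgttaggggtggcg

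The promoter of MRPL22, whose protein uL22m lines the exit tunnel, held the NRF1 motif ending 17 bases before the start and the YY1 element from 35 bases after it. MRPL33 (bL33m of the large subunit) had the ETS core 8 bases before its start. MRPL46 (mL46) had the YY1 element in the first bases of its transcript. The window of MRPL46 also contains the start of MRPS11 (uS11m, of the small subunit platform). These genes point away from each other on chromosome 15, and their 5′ ends lie 63 bases apart. MRPL12, whose protein bL12m forms the stalk that recruits translation factors, had none of these motifs in its window, which contained 40 CpG dinucleotides.

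In WT cells all 77 genes were detected. Mean CPM ran from 7.17 to 137.9 with a median of 31.2, and the coefficient of variation over the 4 WT libraries had a median of 9.09%. Per kilobase of the canonical transcript, the median was 21.8 CPM, 23.0 among large and 21.4 among small subunit genes. The highest level per kilobase was that of MRPL33, 85.1 ± 5.55 CPM (SD, n = 4). MRPL3 (uL3m, near the catalytic centre) followed at 80.7 ± 8.31, within the spread of MRPL33. MRPL51 (mL51) was at 64.5 ± 4.00, MRPL20 (bL20m) at 51.0 ± 3.59 and MRPL27 (bL27m) at 49.2 ± 3.41, and the last pair did not differ beyond their spread. The lowest were MRPS17 (uS17m) at 5.60 ± 0.341, MRPS36 at 5.45 ± 1.25, MRPL42 (mL42) at 5.20 ± 0.189, MRPS33 (mS33) at 4.31 ± 0.497 and MRPL22 at 3.09 ± 0.283 CPM per kilobase. MRPL42 had one of the higher levels before division by length, at 77.2 to 83.6 CPM, and its canonical transcript has 15557 bases. The reads were counted per gene, so these levels depend on which transcript is taken for the length.

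Libraries differed in depth and in mitochondrial rRNA. Total counts were 5248960 to 8998521 in WT, 6837484 to 17170493 in the mutant lines and 24315844 to 29862658 with inhibitors, so the inhibitor libraries measured each gene more finely. Depth and treatment cannot be told apart for the inhibitors. MT-RNR1 and MT-RNR2, the rRNAs of the mitochondrial ribosome, took 20.8 to 23.9% of the counts in WT, 0.00376 to 0.0259% in KDAC8H143A and at most 0.00541% with either inhibitor. They took 0.195% in KDAC6H216A replicate 1 against 13.1 to 15.1% in its other libraries, and 0.173% in KDAC6H611A replicate 4 against 21.0 to 38.0% in its others. All RNA was depleted of rRNA before sequencing, and the part of that step in these shares or in the changes of other genes was not tested. CPM values below are scaled by the trimmed mean of M values (TMM), which does not count this share as a change of the other genes.

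Summed over the 77 genes, KDAC8H143A had the lowest level of the 6 groups. In RNA from whole cultures a change in the mix of cells and a change of RNA per cell cannot be told apart. The sum was 2437, 2746, 2729 and 2628 CPM in the WT libraries and 1617, 1790.1, 1827 and 1725 in KDAC8H143A, with no overlap. It was 2551, 2498 and 2572 with Tubastatin A and 2382, 2488 and 2305 with PCI-34051, where the ranges met those of WT. These CPM are scaled over all 22 libraries and the fold changes below over 2 groups, so they can differ. MRPL3 had a mean of 137.9 CPM in WT and 149.4 with Tubastatin A, but a log2 fold change of -0.0047. Whether the inhibitor sums would meet those of WT on the scale of the fits was not tested. KDAC6H216A replicates 2 to 4 were at 3086, 3389.9 and 3261, above WT, and replicate 1 was at 2199, below it. KDAC6H611A was at 2423, 1892, 2778 and 2717.

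By summed CPM, KDAC8H143A was the one group whose subunit balance lay outside the range of WT. The log2 ratio of summed large to summed small subunit CPM was 0.56 ± 0.014 (SD, n = 4) in WT. Means were lower in KDAC8H143A, at 0.42 ± 0.075, and in KDAC6H611A, at 0.51 ± 0.086, and KDAC6H216A was at 0.55 ± 0.061. The inhibitor groups (n = 3) stood at 0.56 ± 0.0077 for Tubastatin A and 0.53 ± 0.028 for PCI-34051. In KDAC8H143A the 4 libraries stood at 0.38, 0.36, 0.42 and 0.53, all below the WT range of 0.55 to 0.58. The other 4 groups overlapped with WT. The difference of KDAC8H143A from WT was -0.14 by summed CPM and -0.20 with each gene put in the subunit of its protein. It was -0.03 when the mean of log2 CPM, which gives every gene the same weight, took the place of the sum. By that mean the groups overlapped, at -0.22 to -0.063 in KDAC8H143A and -0.14 to -0.095 in WT. In KDAC6H216A the ratio of replicate 1 was 0.46 and the others were at 0.57 to 0.58.

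**Figure D1:**
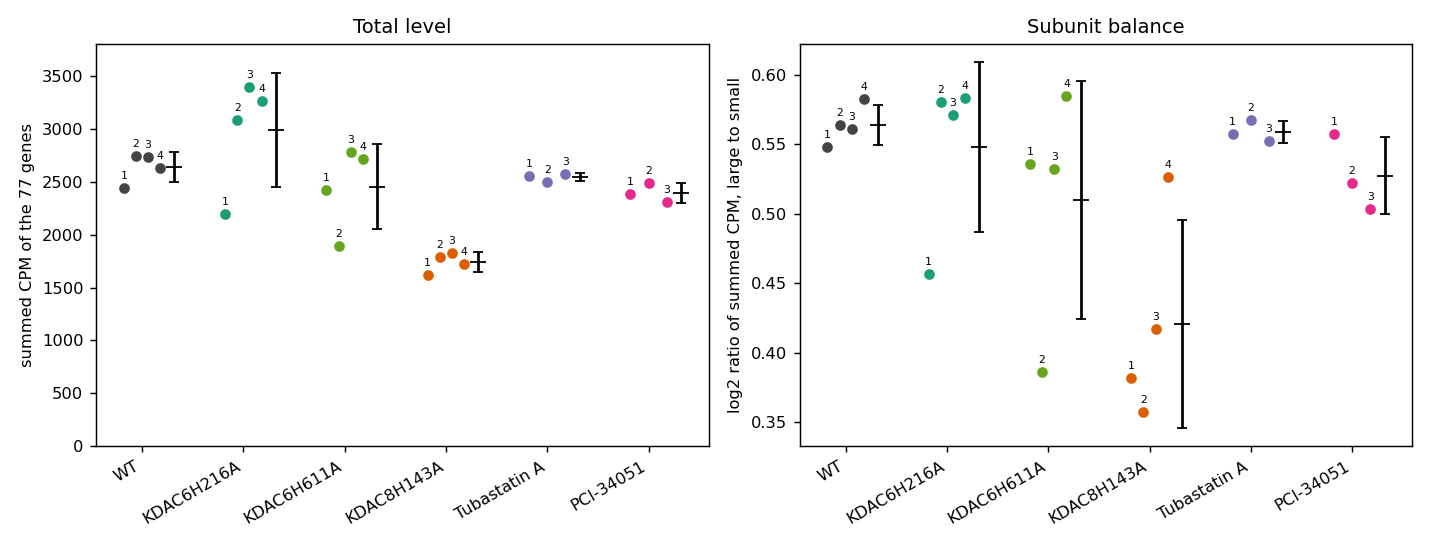
Left, the summed CPM of the 77 genes (vertical axis, from 0) in each library by group; right, the log2 ratio of summed large to small subunit CPM. Points are libraries numbered by replicate, and the black mark with bars is the mean ± SD. The 4 KDAC8H143A libraries lie below every WT library in both panels, and KDAC6H216A replicate 1 stands apart from its group in both.

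KDAC8H143A differed from WT in most of these genes. In edgeR's quasi-likelihood test, with 0.01 as the limit for the Benjamini-Hochberg adjusted p, 51 of the 77 fell and 5 rose, against 26.9% of all 16101 genes tested that were lower and 31.6% that were higher. Their median log2 fold change was -0.86, and that of all genes was 0.08. The subunits had close medians, -0.91 in the large (30 of 48 lower, 3 higher) and -0.75 in the small (21 of 29 lower, 2 higher). Scaled by the total count only, which moved the median of all genes to 0.36, 38 were lower and 10 higher, against 15.5% and 40.3% of all genes. Genes of proteins with bacterial counterparts had a median of -0.79 (30 of 46 lower) and those of mitochondrial proteins -0.89 (20 of 30 lower).

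The furthest below WT was MRPS36, at 7.45, 8.49, 4.799 and 7.96 CPM in WT and 1.34, 1.55, 0.641 and 0.898 in KDAC8H143A. The groups did not overlap, and the log2 fold change was -2.61 ± 0.31 (SE, edgeR adjusted p = 1.9e-05). MRPL18 (uL18m), whose bacterial counterpart binds 5S rRNA, was at 28.3, 33.0, 34.3 and 31.4 CPM in WT and 4.09, 6.25, 5.70 and 7.51 in KDAC8H143A. It fell by 2.38 on the log2 scale, from -2.70 to -2.06 in its 95% interval. MRPL13 (uL13m) was lower by a log2 fold change of -2.14 ± 0.29 and MRPL33 by -2.12 ± 0.16. MRPL33 had 8.01, 10.46, 12.4 and 7.27 CPM in KDAC8H143A, all below the 39.7 to 46.5 CPM of WT. MRPL54 (mL54) was at -1.78 ± 0.19, although its transcript has 60.9% GC.

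Higher in KDAC8H143A than in WT were 5 genes. MRPL23 (uL23m, at the exit tunnel) had 15.5, 13.4, 14.1 and 15.8 CPM in WT and 26.4, 19.2, 37.7 and 34.9 in KDAC8H143A, a log2 fold change of 1.06 ± 0.20 (SE). It was the only gene over 3 scaled median absolute deviations from the median of the 77. MRPL12 had 36.2, 35.3, 31.2 and 44.4 CPM in WT and 64.1, 58.1, 72.4 and 73.3 in KDAC8H143A (0.91 ± 0.13). MRPS25 (mS25) rose by 0.74 ± 0.09, MRPL20 by 0.62 ± 0.14 and MRPS5 (uS5m, at the mRNA entry) by 0.54 ± 0.11 on that scale. None of the 5 overlapped with WT.

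The changes in KDAC8H143A followed the GC content of the transcripts. Across the 77 genes the correlation of GC content with log2 fold change was 0.65, and across all 15897 genes with a GC value it was 0.52. This is a description, since genes are not independent replicates and all values come from the same libraries. The 26 genes under 45% GC had a median of -1.24, with 24 lower and 1 higher, against 50.8% and 7.35% of all genes in that class. The 19 genes at or above 55% had a median of -0.00099, with 6 lower and 2 higher, against 5.43% and 62.5%. All genes tested in the same classes had medians of -0.60 and 0.91, so the mitochondrial ribosomal protein genes lay below other genes of like GC content. With a smooth correction for GC content and length, 60 of the 77 were lower and 2 higher, against 27.9% and 20.7% of all genes, and their median was -0.82. The correlation of GC content with the change across the 77 genes was then -0.25, so the slope changed sign. Corrected medians were -0.63 under 45% GC and -0.97 at or above 55%.

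That correction changed which genes stood out. MRPL12 and MRPL23 had estimates above 0 without it and below 0 with it, -0.34 ± 0.11 for MRPL12 (edgeR adjusted p = 0.019) and -0.31 ± 0.14 for MRPL23 (0.075), neither of them called. MRPL20 was no longer called at 0.25 ± 0.14. MRPS5 (0.84 ± 0.11) and MRPS25 (0.71 ± 0.085) were called higher with it too. At the other end were MRPL54 at -2.76 ± 0.20, MRPL18 at -2.46 ± 0.17, MRPL33 at -1.68 ± 0.14 and MRPS36 at -1.64 ± 0.27. MRPL13 was at -1.48 ± 0.21. Whether GC content itself or something that moves with it lies behind the slope was not tested.

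**Figure D2:**
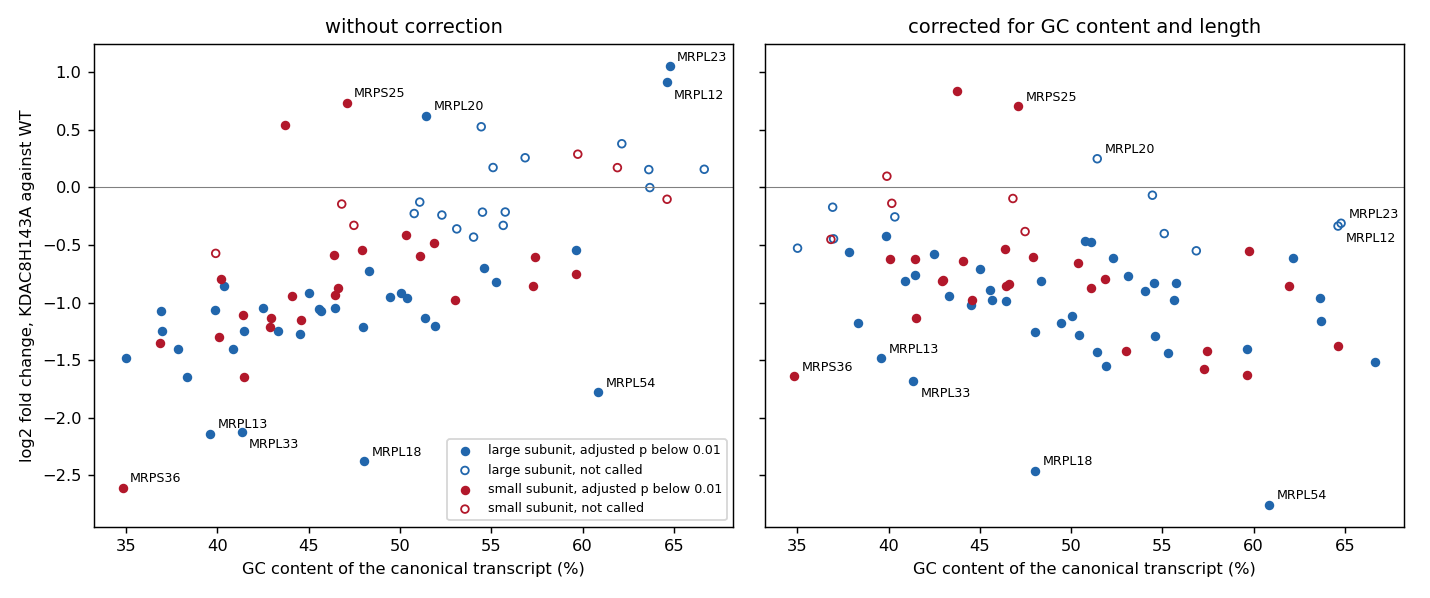
The log2 fold change of each of the 77 genes between KDAC8H143A and WT (vertical axis) against the GC content of its canonical transcript in percent (horizontal axis), without a correction (left) and with one for GC content and length (right). Filled points passed an adjusted p of 0.01, blue is the large and red the small subunit. GC-rich genes such as MRPL12 and MRPL23 lie above 0 on the left and below it on the right, and MRPL18, MRPL33, MRPL54 and MRPS36 lie low in both.

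More of these genes were lower than higher with either inhibitor. With Tubastatin A 37 fell and 7 rose, against 28.6% lower and 29.3% higher of all 15246 genes, and with PCI-34051 44 fell and 4 rose, against 25.6% and 25.5% of 15346. The medians were -0.23 and -0.31, beside -0.0029 and -0.0071 for all genes. The subunits had close medians, -0.24 for the large and -0.21 for the small subunit with Tubastatin A, and -0.33 and -0.28 with PCI-34051. Of the genes of proteins with bacterial counterparts 26 of 46 were lower with Tubastatin A (median -0.28) and 30 with PCI-34051 (-0.38). Of those particular to mitochondrial ribosomes 11 of 30 (-0.20) and 13 (-0.24) were lower. The difference between these classes was not tested. Both comparisons use the same WT libraries and so are not independent.

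The direction of the family with inhibitors depended on the scaling. When libraries were scaled by the total count only, the median of all genes moved to 0.35 with Tubastatin A and 0.38 with PCI-34051. On that scale 25 of the 77 were higher and 7 lower with Tubastatin A, against 51.9% and 12.1% of all genes, and 20 were higher and 10 lower with PCI-34051, against 51.4% and 9.62%. Relative to the median of all genes, the family stood at -0.23 and -0.30 under both scalings.

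The correction for GC content and length moved the family's shift with the inhibitors nearer to 0. Relative to all genes the median became -0.07 with Tubastatin A and -0.19 with PCI-34051. With Tubastatin A 27 genes were then lower and 13 higher, against 30.2% and 26.5% of all genes, and with PCI-34051 34 were lower and 8 higher, against 27.7% and 23.4%. In the class at or above 55% GC the corrected median was 0.05 with Tubastatin A, with 2 genes lower and 5 higher, and -0.04 with PCI-34051, with 5 lower and 3 higher. Across the 77 genes the correlation of GC content with the change was 0.047 with Tubastatin A and 0.076 with PCI-34051 before the correction and 0.39 and 0.32 after it, as a description. In 1 fit over all 6 groups fewer were called, 5 lower and 3 higher with Tubastatin A (8.71% and 16.2% of all 18480 genes) and 10 lower and 2 higher with PCI-34051 (8.88% and 14.6%).

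MRPL33 fell furthest with both inhibitors. It had 46.5, 43.1, 43.7 and 39.7 CPM in WT, 26.2, 19.4 and 21.9 with Tubastatin A and 17.2, 14.99 and 17.2 with PCI-34051. The 3 groups did not overlap, and the log2 fold changes from WT were -1.05 ± 0.09 and -1.49 ± 0.08 (edgeR adjusted p = 7.9e-09 and 6.4e-11). MRPL11 (uL11m, at the base of the stalk) had 22.1 to 26.1 CPM in WT and 12.96, 12.7 and 11.3 with PCI-34051, a log2 fold change of -1.06 ± 0.09. MRPS36 was at 3.30, 3.21 and 4.61 CPM with PCI-34051, below the lowest WT library at 4.799, and its log2 fold change was -1.04 ± 0.21. With Tubastatin A the next after MRPL33 were MRPL9 (bL9m), at -0.82 ± 0.07, and MRPL46, at -0.81 ± 0.10.

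MRPL46 and MRPS11, the divergent pair of the promoter window printed above, were lower than WT in KDAC8H143A and with both inhibitors. This pair was picked after its values were seen. MRPS11 had 21.1, 23.1, 23.6 and 18.4 CPM in WT, 14.3, 14.6 and 14.4 with Tubastatin A and 13.9, 14.2 and 16.4 with PCI-34051. Its log2 fold changes were -0.70 ± 0.09 and -0.64 ± 0.10, beside -0.81 and -0.95 for MRPL46. In KDAC8H143A MRPL46 was at -1.21 ± 0.15 and MRPS11 at -0.41 ± 0.12 (edgeR adjusted p = 0.008).

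MRPL12 rose furthest with either inhibitor. It had 64.9, 63.9 and 62.5 CPM with Tubastatin A and 60.9, 62.2 and 56.6 with PCI-34051, all above its highest WT library at 44.4. The log2 fold changes were 0.69 ± 0.08 and 0.61 ± 0.08 (edgeR adjusted p = 1.6e-07 and 6.8e-06). In KDAC8H143A its call depended on the correction for GC content. MRPL22 had 10.3, 10.1, 8.46 and 10.3 CPM in WT, 14.6, 17.4 and 14.6 with Tubastatin A and 15.5, 15.1 and 15.9 with PCI-34051. It rose by 0.56 ± 0.11 and 0.57 ± 0.11 on the log2 scale, whereas in KDAC8H143A it was below WT, at -0.86. With the correction for GC content and length its value in KDAC8H143A was -0.26 ± 0.15 and not called (edgeR adjusted p = 0.16). MRPL42 rose by 0.49 ± 0.05 and 0.48 ± 0.05, and was at -1.64 in KDAC8H143A. MRPL53 (mL53, near the stalk) rose by 0.63 ± 0.08 and 0.45 ± 0.11. With Tubastatin A, MRPS6 (bS6m), MRPS10 (uS10m) and MRPS30 were also higher, by 0.32, 0.18 and 0.17.

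**Figure D3:**
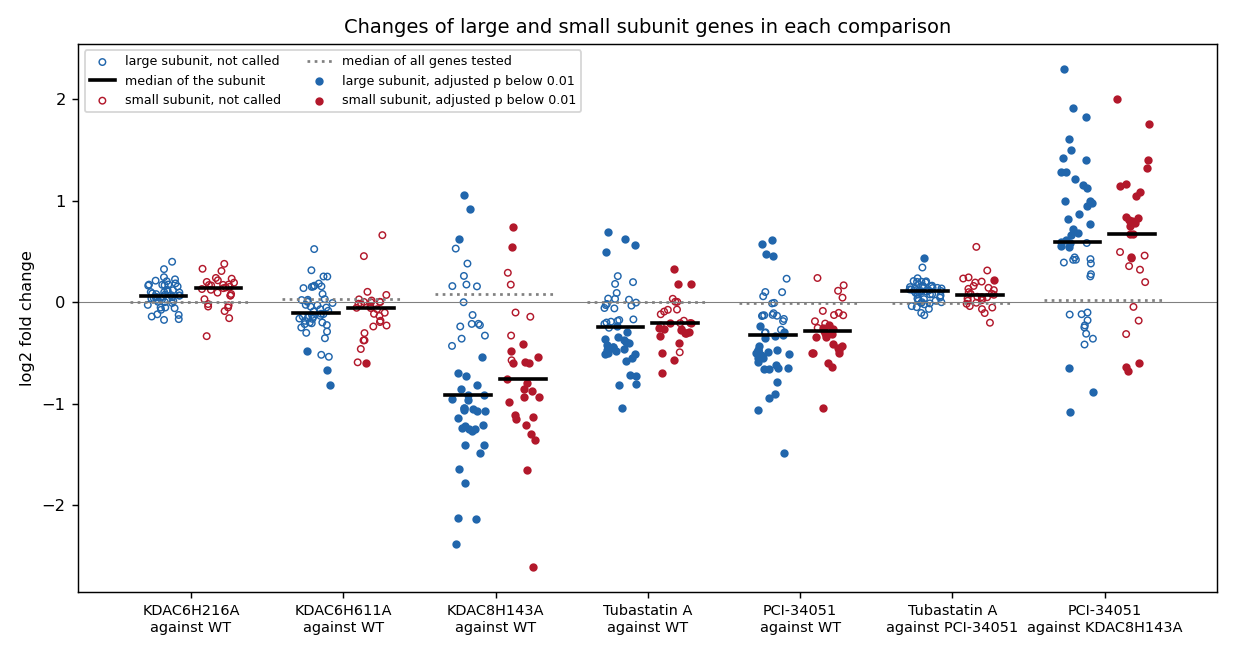
The log2 fold change of each gene (vertical axis) in the 7 comparisons (horizontal axis), large subunit in blue and small subunit in red, filled where the adjusted p was below 0.01. Black bars are the medians of the subunits and dotted lines the median of all genes tested. The medians of both subunits lie together in each comparison, at -0.91 and -0.75 in KDAC8H143A.

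The inhibitors were also compared with each other, at their different doses. Of the 77 genes, 2 were higher with Tubastatin A than with PCI-34051 and 0 were lower, against 3.45% and 2.2% of all 18409 genes. DESeq2 called 1 higher and 0 lower, and 23 had an unadjusted p below 0.05 in edgeR. MRPL33 was higher with Tubastatin A by 0.44 ± 0.10 (edgeR adjusted p = 0.0095), with a 95% interval of 0.24 to 0.64, and MRPS34 (mS34) by 0.22 ± 0.05 (0.12 to 0.32). MRPS34 had 41.9, 39.3 and 40.7 CPM with Tubastatin A and 33.9, 36.2 and 33.5 with PCI-34051. Of the 6 fits that left out 1 library, MRPL33 was called only in the one without Tubastatin A replicate 2 and MRPS34 only in the one without PCI-34051 replicate 2. MRPS36 (0.54, interval 0.21 to 0.88) and MRPS25 (-0.20, interval -0.30 to -0.10) lay over 3 scaled deviations from the median of the 77, 0.09, without being called. For MRPL12 the difference was 0.08 ± 0.05.

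PCI-34051 and KDAC8H143A, an inhibitor and a mutation aimed at the same enzyme, differed in most of these genes. The treatment lasted 2 days, the mutation is permanent, and depth differed too. The paper proposes that both inhibitors bind a shared target besides KDAC6 and KDAC8. Relative to KDAC8H143A, 44 of the 77 were higher with PCI-34051 and 6 lower, against 30.3% and 27.8% of all 18540 genes, and the median was 0.61 (0.02 for all genes). MRPL42 was higher by 2.30 ± 0.30, with 125, 120.2 and 116 CPM with PCI-34051 and 21.7, 43.7, 19.0 and 14.9 in KDAC8H143A. MRPS10 was higher by 1.997 ± 0.23 and MRPL18 by 1.91 ± 0.18. MRPL20 was lower by a log2 fold change of -1.08 ± 0.15, with 23.9, 23.6 and 25.6 CPM against 52.9, 41.2, 54.5 and 63.7. Its call was lost with the correction for GC content and length, and over the alternatives its estimate ran from -1.31 to -0.15. MRPL23 followed at -0.88 ± 0.21 and MRPS25 at -0.68 ± 0.10. MRPL23 was called higher, at 0.79, with the correction for GC content and length, and was not called without KDAC8H143A replicate 3 or without any one of the PCI-34051 replicates. Against WT, whose libraries both share, MRPL22 and MRPL42 were lower in KDAC8H143A and higher with PCI-34051. MRPL20 and MRPS5 were higher in KDAC8H143A and lower with PCI-34051. With the correction for GC content and length, MRPL22 (-0.26) and MRPL20 (0.25) were not called in KDAC8H143A, and MRPL42 (-1.17) and MRPS5 (0.84) still were.

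In KDAC6H611A few of these genes changed, and the share that fell was near that of all genes. None rose and 4 fell (5.19%), against 6.08% higher and 6.24% lower of all 14725 genes, with a median of -0.09 (0.03 for all genes). DESeq2 called 1 higher and 5 lower, and 19 had an unadjusted p below 0.05 in edgeR. MRPL32 (bL32m), whose protein is matured by the m-AAA protease, had 26.1, 29.7, 30.3 and 27.4 CPM in WT and 15.4, 13.9, 19.1 and 14.4 in KDAC6H611A. It lies on chromosome 7 from 42932376 to 42948958, and its log2 fold change was -0.82 ± 0.11 (edgeR adjusted p = 0.00028). MRPL30 (uL30m) had 43.0, 46.8, 44.8 and 39.2 CPM in WT and 26.0, 21.7, 27.0 and 32.5 in KDAC6H611A, a change of -0.67 ± 0.11. MRPS9 (uS9m), whose bacterial counterpart contacts the tRNA in the P site, changed by -0.60 ± 0.14 and MRPL35 (bL35m) by -0.49 ± 0.12. These 3 genes lie on chromosome 2, where 17.7% of all genes tested were lower, MRPL35 from 86199355, MRPL30 from 99181152 and MRPS9 from 105038069. All 4 were separated from WT in every library.

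Over 3 scaled deviations from the median of the 77 stood these genes except MRPL35, and 4 that were not called. MRPS24 (uS3m, at the mRNA entry), on chromosome 7 from 43866558, was at -0.59 ± 0.17 (edgeR adjusted p = 0.028). MRPS33, on the same chromosome from 141002610, was at 0.66 ± 0.18 (edgeR adjusted p = 0.02), with 26.6, 17.3, 38.7 and 29.7 CPM against 16.1 to 21.0 in WT. MRPL34 (bL34m) was at 0.52 ± 0.23 and MRPS25 at 0.45 ± 0.14.

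Around several of these genes, other genes had changed in the same direction. Within 5 Mb of MRPL32, 14 of 44 genes tested were lower and 1 higher, with a median log2 fold change of -0.35, and near MRPS9 14 of 34 were lower (median -0.43). MRPS33 lay among 51 genes with a median of 0.38 and MRPS25 among 49 with a median of 0.31. Near MRPL35 the neighbours had a median of 0.066, and 4 of 36 were higher. Near MRPL30, at -0.67 itself, 9 of 61 were lower and 2 higher (median -0.11). MRPL34, at 0.52, lay among 159 genes with a median of 0.10. Across the 77 genes the correlation between a gene's change and the median of its neighbours was 0.67. This is a description: neighbours share libraries and some windows overlap. On chromosome 2 the 8 genes had a median of -0.43 and all 947 genes tested -0.20. On chromosome 13 the pair MRPL57 and MRPS31 had a median of -0.49, beside -0.43 for all 260 genes.

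KDAC6H611A replicates 2 and 4 stood apart from the others of the group, replicate 2 with 38.0% mitochondrial rRNA and the lowest sum, and replicate 4 with 0.173% mitochondrial rRNA and counts further from each of the other 3 libraries than they were from one another. Without replicate 4, 5 of the 77 were lower and 0 higher, against 5.57% and 4.76% of 14968 genes, with 17 at an unadjusted p below 0.05 in edgeR, and the median was -0.13. Without replicate 2, 7 of the 77 were lower and 1 higher, against 9.83% and 9.58% of 14981 genes, and the median was -0.0054. MRPL32, MRPL30, MRPS9 and MRPL35 were among the 7, together with MRPS24, MRPL57 and MRPL44, and MRPS33 was the higher one at 0.80 ± 0.13. With all 4 libraries, MRPS9 and MRPL35 were each lost in 6 of the 8 fits that left out 1 library.

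**Figure D4:**
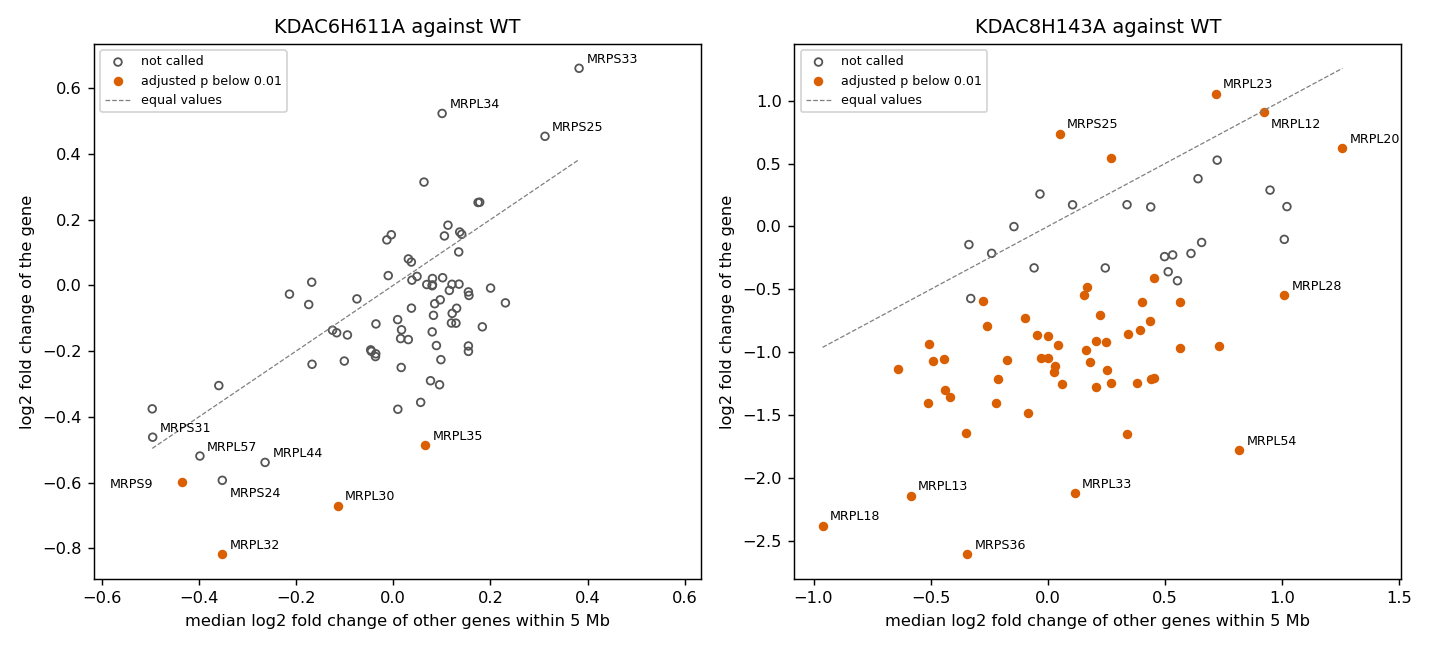
The log2 fold change of each of the 77 genes (vertical axis) against the median of the other genes tested within 5 Mb (horizontal axis) for KDAC6H611A (left) and KDAC8H143A (right). Filled points passed an adjusted p of 0.01 and the dashed line marks equal values. On the left MRPL32, MRPS9 and MRPS24 lie low among low neighbours and MRPS33 high among high ones, and on the right 69 of the 77 lie below the line.

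In KDAC8H143A the same comparison gave a different picture. The correlation with the neighbours was 0.54, but 69 of the 77 genes were lower than the median of their neighbours, by 0.89 at the median. MRPL18, near the end of the long arm of chromosome 6, lay in the lowest surroundings, where 19 of 31 genes were lower with a median of -0.96. MRPL33 lay among 90 genes with a median of 0.11 and MRPL54 among 203 with a median of 0.82. MRPL12 lay among 121 genes with a median of 0.92, next to its own 0.91. With the correction for GC content and length the genes' changes and the neighbours' uncorrected medians had a correlation of -0.044.

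In KDAC6H216A none of these genes passed the test with all libraries, and leaving out 1 library changed that. With all 4 libraries edgeR and DESeq2 both called 0 of 77, against 0.214% higher and 0.621% lower of 14500 genes, and 5 genes had an unadjusted p below 0.05. The median was 0.08, 0.06 in the large and 0.14 in the small subunit. Without replicate 1, 20 rose and 2 fell, against 12.2% higher and 13.8% lower of 14638 genes, and the median was 0.17. Among the 20 were MRPL39 (mL39) at 0.51 ± 0.11, MRPL49 (mL49) at 0.50 ± 0.083 and MRPS33 at 0.46 ± 0.091. The 2 that fell were MRPS27 (mS27), a pentatricopeptide repeat protein, at -0.24 ± 0.064, and MRPS25 at -0.22 ± 0.060. With all libraries, MRPS27 was the one gene over 3 scaled deviations from the median, at -0.34 ± 0.11 (edgeR adjusted p = 0.20). Its CPM were 58.2, 79.8, 95.9 and 97.9 against 92.9 to 101.5 in WT. The 56 other genes tested within 5 Mb of MRPS27 had a median of -0.22, with 0 called, beside -0.0065 for chromosome 5. Across the 77 genes the correlation with the median of the neighbours was 0.32, as a description. The part of replicate 1's low mitochondrial rRNA in the results of this line was not tested.

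**Figure D5:**
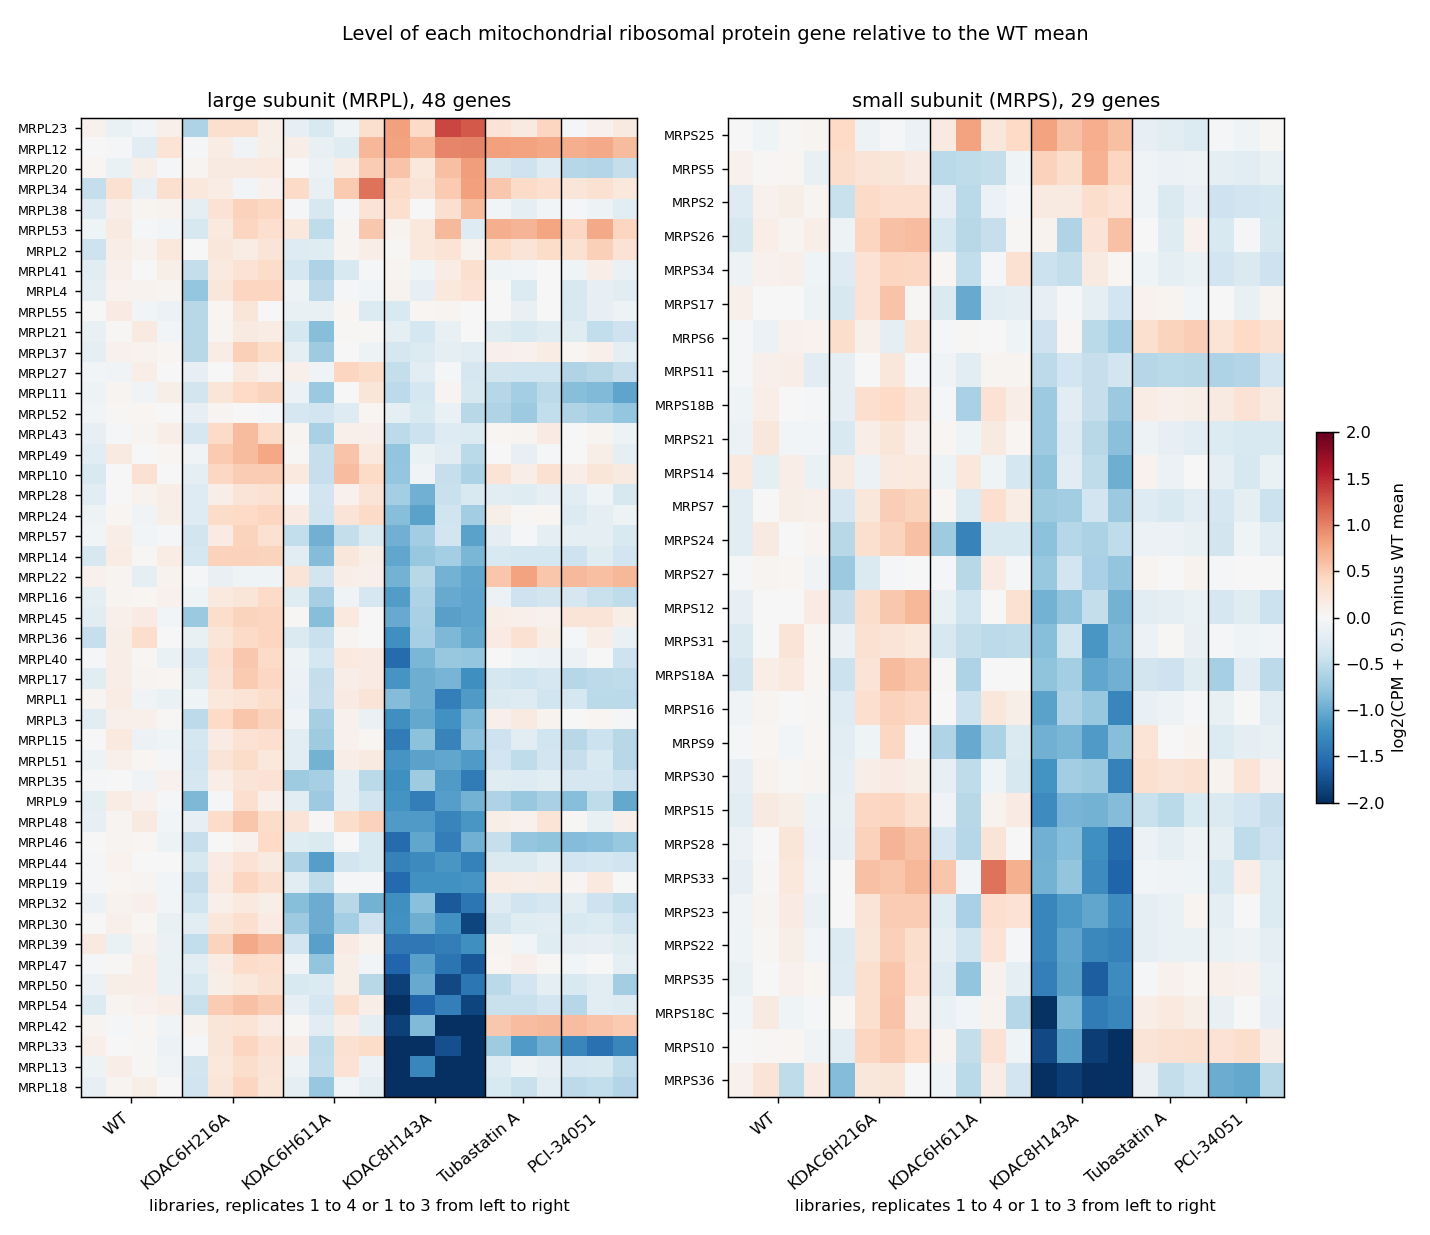
Each row is a gene and each column a library, grouped by condition, and the colour is log2(CPM + 0.5) minus the WT mean of the gene, from -2 (blue) to 2 (red). Genes are ordered within each subunit by their mean in KDAC8H143A. KDAC8H143A is blue in most rows, MRPL12, MRPL22, MRPL42 and MRPL53 are red with both inhibitors, and KDAC6H216A replicate 1, the first column of its group, differs from the other 3 columns in many rows.

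MRPL30, MRPL32 and MRPL35 were called lower in 4 of the 5 comparisons with WT, which share the WT libraries, and no gene was called in 5. The inhibitor calls of these 3 genes were lost with total count scaling and in 1 fit over 6 groups, and the call of MRPL35 in KDAC6H611A held in 3 of 10 other settings. The paralogous proteins of MRPS18A, MRPS18B and MRPS18C, which descend from 1 bacterial protein, had separate values. MRPS18A was lower in KDAC8H143A (-0.86) and with the inhibitors (-0.50 with Tubastatin A, -0.60 with PCI-34051). MRPS18B (-0.48) and MRPS18C (-1.36) were lower in KDAC8H143A, and with inhibitors neither was called. The correction for GC content and length changed their order in KDAC8H143A, to -1.58 for MRPS18A, -0.79 for MRPS18B and -0.45 ± 0.19 for MRPS18C. MRPS18C was then not called (edgeR adjusted p = 0.052). MRPS30 was lower in KDAC8H143A (-0.93 ± 0.14), higher with Tubastatin A (0.17 ± 0.05) and at 0.04 ± 0.06 with PCI-34051.

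A further 5 proteins of the mitochondrial ribosome have genes with other symbols. CHCHD1 was called lower in 3 comparisons, at -1.08 ± 0.12 with Tubastatin A, -1.30 ± 0.15 with PCI-34051 and -1.88 ± 0.17 in KDAC8H143A. GADD45GIP1 was lower with the inhibitors (-1.02 and -1.13) and not called in KDAC8H143A (-0.22). DAP3 and PTCD3 were lower in KDAC8H143A (-0.46 and -0.44) and with Tubastatin A (-0.29 and -0.23). With PCI-34051 PTCD3 was lower (-0.22) and DAP3 was at -0.24 without being called. AURKAIP1 was higher in KDAC8H143A (0.56 ± 0.16) and lower with both inhibitors (-0.26 and -0.37). All values of these 5 genes are without the correction for GC content and length. In both KDAC6 lines 0 of the 5 were called by edgeR, and 0 had an unadjusted p below 0.05. The rRNAs MT-RNR1 and MT-RNR2 were lower in KDAC8H143A (-10.15 and -11.69) and with both inhibitors (-11.80 to -15.36), which cannot be told apart here from the efficiency of rRNA depletion.

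Of the genes that serve mitochondrial translation in other ways, the translation factors were mostly lower in KDAC8H143A. The counts below stand against 26.9% lower and 31.6% higher of all genes tested. They are without the correction for GC content and length. Of all genes under 45% GC, 50.8% were lower and 7.35% higher, and at or above 55% GC 5.43% were lower and 62.5% higher. Of 15 translation factors 11 were lower and 0 higher (median -0.66), the lowest being MTRF1L, a release factor, at -1.12. Of 23 ribosome assembly factors 5 were lower and 7 higher (21.7% and 30.4%, near the shares of all genes, median 0.14), from TFB1M, an rRNA methyltransferase, at -1.16 to MTG1, a GTPase of the large subunit, at 1.78. Of 20 genes for aminoacylation of mitochondrial tRNAs 6 were lower and 5 higher (30% and 25%), from QRSL1 at -1.995 to CARS2 at 0.91. Of 10 genes for expression of the mitochondrial genome 3 were lower and 4 higher (30% and 40%), from TEFM at -1.33 to POLRMT, the mitochondrial RNA polymerase, at 1.58. Subunits of the respiratory chain encoded in the nucleus had 43 lower and 2 higher of 60 (median -0.95), with NDUFB4 at -2.70 and NDUFS7 at 0.75. Of 82 cytoplasmic ribosomal protein genes, 64 were lower and 4 higher (median -0.93), with RPS16 at 1.75. The neighbours of these listed genes were not examined, and the shares differed by chromosome. On chromosome 6, 44.2% of all 761 genes tested were lower and 19.7% higher.

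The same lists were counted with the inhibitors, scaled by TMM, where 28.6% of all genes were lower and 29.3% higher with Tubastatin A and 25.6% and 25.5% with PCI-34051. With Tubastatin A 11 of 20 aminoacylation genes were lower and 0 higher, with VARS2 at -0.70, and with PCI-34051 9 were lower and 0 higher, with VARS2 at -0.63. The values that follow are for Tubastatin A and then PCI-34051. Of the 23 assembly factors 10 and 9 were lower and 3 and 3 higher, RBFA, which binds the small subunit, at -1.17 and -1.14 and NOA1, a GTPase, at 0.72 and 0.64. Of the 15 translation factors 5 and 4 were lower (33.3% and 26.7%, near the shares of all genes) and 1 and 1 higher, with SLIRP at -0.50 and -0.56 and GUF1 at 0.24 and 0.31. Of the 10 genes of mitochondrial genome expression 4 and 4 were lower, with HSD17B10, a subunit of mitochondrial RNase P, at -0.75 and -0.77. The respiratory chain had 25 lower and 11 higher of 60 with Tubastatin A and 27 lower and 5 higher with PCI-34051, with NDUFS6 at -1.29 and -1.71 and SDHC at 0.67 and 0.73. Of the 82 cytoplasmic ribosomal protein genes 24 were lower and 32 higher (29.3% and 39.0%, median 0.07), and with PCI-34051 25 were lower and 26 higher (30.5% and 31.7%, median -0.02), with RPS27 at -1.29 and -1.87 and RPS16 at 2.55 and 2.41. In KDAC6H611A, RBFA was lower at -0.92 ± 0.14, as were 1 other assembly factor, FASTKD2, and CARS2 (-0.39), and the cytoplasmic list had RPL17 lower (-0.996) and RPS16 higher (0.80). RBFA and RPL17 lie on chromosome 18, where 51.3% of all 230 genes tested were lower with a median of -0.76, CARS2 on chromosome 13, where 29.2% were lower, and FASTKD2 on chromosome 2.

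The changes of genes with and without a promoter motif were set side by side. In KDAC8H143A the 13 genes with the YY1 element had a median log2 fold change of -0.93 and the 55 without that element -0.76. The medians were -0.24 and -0.21 with Tubastatin A, and -0.24 and -0.30 with PCI-34051. For the longer ETS motif, 12 genes with it and 56 without had medians of -0.58 and -0.84 in KDAC8H143A, -0.35 and -0.20 with Tubastatin A and -0.51 and -0.30 with PCI-34051. For the ETS core they were -0.91 and -0.70, -0.26 and -0.18, and -0.32 and -0.30, and for NRF1 -0.95 and -0.81, -0.23 and -0.21, and -0.35 and -0.30. These differences were not tested. Numbered pseudogenes of 34 of the 77 genes are in the table, 13 genes overlap another coding gene on the same strand, MRPL12, MRPL30, MRPL33, MRPL46, MRPL53 and MRPS24 among them, and 26 one on the other strand. The strand setting of the counting is not given in the sources used here, so reads of such pairs may have been divided between them.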

How the data were processed

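Expression was measured by RNA-seq of rRNA-depleted RNA from 22 HT1080 samples in 6 groups. According to the methods and the submitters' processing notes, the authors trimmed reads with Trimmomatic 0.39, aligned them with Bowtie2 2.4.5 and deposited expected counts per gene from RSEM 1.3.3, and tested them with DESeq2 1.38.2. The annotation release and the strand setting are not given in the sources used here.

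Expected counts were rounded to whole numbers, genes were kept by edgeR's default filter, libraries were scaled by TMM, and each comparison was fitted on its 2 groups with edgeR 4.0.16 (quasi-likelihood test, Benjamini-Hochberg adjustment over all genes tested, called at an adjusted p below 0.01) in R 4.3.3. Printed CPM were scaled over all 22 libraries. A fold against a group at or under 3 counts would be a bound, and none of these genes was. The script was tested on simulated counts. Gene positions, lengths and GC content come from GENCODE release 44 (GRCh38), matched by gene ID for all 77 genes. The correction for GC content and length used a smooth curve from mgcv 1.9.3 as an offset. Neighbours are the other genes tested within 5 Mb on each side. Outliers lay more than 3 scaled median absolute deviations from the median of the 77.

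Genes named are up to 3 called and not overlapping in each direction per comparison, outliers, the 5 highest and 5 lowest WT levels per length, genes called in 4 or 5 comparisons with WT, symbols that do not tell the subunit, the ribosomal proteins with other symbols, and the called extremes of each pathway list, apart from Y-linked genes. MRPS11, MRPL44 and MRPL57 and members of counts of 7 or fewer were named after their values were seen. The members and lists were chosen with earlier results of these data known. Alternatives were DESeq2 1.42.0, upper quartile and total count scaling, other filters, protein-coding genes only, 1 fit over 6 groups, a limit of 0.05, the GC correction, the replicate number as a block, and leaving out each library. No 2 libraries of a group agreed within sampling noise.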

Additional observations from a re-analysis of the deposited data

Results flagged for a closer look

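Of 104 sets of 4 libraries tested with Dixon's criterion for a single value far from the others, 4 passed, and chance passes about 1 in 20. The log2 ratio of summed large to small subunit CPM was 0.4568 in KDAC6H216A replicate 1, far below its other 3 libraries. The same library had 36.93 CPM of MRPL20, the lowest of its group, and 83.38 CPM of MRPS25, the highest. These 3 values belong to the library with 0.195% mitochondrial rRNA. MRPL22 was at 8.461 CPM in WT replicate 3, below the other 3 WT libraries.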

How the results depend on the processing

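Among the counts of genes called, 99 alternative values lay within 1.5 times the reported count in the same direction, 26 did not and 3 turned direction. Of the medians of the 77, 108 moved by less than the spread between replicates and 13 by more, and of the subunit ratios 44 and 4. For named genes 715 values kept their side of the threshold, 63 lost a call, 11 gained one and 6 turned sign. The replicate numbers do not pair the libraries: correlations of same-numbered libraries ran from -0.20 to 0.36, and with the replicate block 0, 3, 55, 40, 46, 1 and 50 genes were called in the 7 comparisons, so the block moved by over 1.5 times only the count of Tubastatin A against PCI-34051, to 1.

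Leaving out 1 library gave 0 to 22 called in KDAC6H216A, the 22 without its replicate 1, 2 to 8 in KDAC6H611A and 0 to 2 in Tubastatin A against PCI-34051. In KDAC6H611A the count was 12 at an adjusted p of 0.05, 7 without a filter, 7 among protein-coding genes, and 1 both with total count scaling and with the replicate block and GC correction together. In Tubastatin A against PCI-34051 it was 10 at 0.05, 7 without a filter, 5 with the GC correction, 1 in DESeq2, 1 with total count scaling and there lower, and 0 with upper quartile scaling or 6 groups in 1 fit. With total count scaling 32 genes were called with Tubastatin A and 30 with PCI-34051, mostly higher. With 6 groups in 1 fit these were 8 and 12.

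The median of the 77 relative to all genes in KDAC8H143A (-0.934) was -1.049 without a filter, -0.787 with 10 counts in every library, where MRPS36 was not tested, -0.806 among protein-coding genes, -0.754 with the GC correction and -0.749 with the replicate block added to it. With the same 2 corrections it was -0.068 and -0.099 with Tubastatin A (-0.227), and -0.189 and -0.182 with PCI-34051 (-0.304). For PCI-34051 against KDAC8H143A (0.593) it was 0.703 without a filter, 0.369 among protein-coding genes, 0.788 with the GC correction and 0.825 with the block added. The subunit ratio in KDAC8H143A became -0.199 by protein and -0.030 by mean log2 CPM, and with Tubastatin A 0.021 and -0.022. MRPL12 in KDAC8H143A turned to -0.335 with the GC correction and -0.337 with the block added, MRPL23 to -0.311 and -0.318, and MRPL23 in PCI-34051 against KDAC8H143A to 0.789 and 0.805. The cause was not tested for any of these.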
